A study of Mus musculus with 12 samples.

Results

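Transcript levels of genes for DNA replication and cell division were compared in whole ovaries of obese and lean mice at 2 ages. Of 40 listed genes, 38 had a probe that the platform annotation names for that gene alone, out of 18069 such genes on the array, and where a gene had several probes the one with the highest mean log2 intensity stood for it. Ccnb1 (cyclin B1) had no probe under this rule and Tyms (thymidylate synthase) shared its probe with a pseudogene, so neither is described. Of the 38 genes, 37 entered the tests, and Gins2, a part of the replicative helicase, stayed below the limit of sensitivity of 0.2 relative intensity units on 11 of 12 arrays and in the mean of every group.

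The lethal yellow (LY) mouse, C57BL/6J Ay/a, carries a mutation that places the agouti gene under the promoter of a neighbouring gene, so that agouti is made in nearly all tissues, and it becomes obese as an adult. The lean black mouse of the same colony, C57BL/6J a/a, was the control. There were 4 groups of 3 females, black and LY mice aged 180 days and black and LY mice aged 90 days, with 1 ovary of 1 mouse on each array. All 12 mice, controls included, were given the GnRH antagonist Antide at 10 μg/g on days 1 and 4 and then equine chorionic gonadotropin (eCG) at 1 IU per 5 g body weight, and ovaries were taken 36 h after eCG, on day 7. Antide removes the pituitary drive to the ovary and eCG replaces it, so the ovaries of all groups had just been driven into follicle growth, and values describe that state and not the spontaneous cycle. Doses went by body weight, and by the paper the 180-day LY mice were heavier than the black mice of that age. What this did to the values was not tested. The 180-day and the 90-day ovaries were hybridized as separate sets of arrays, so a difference between the ages cannot be told apart from one between the sets.

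In a growing follicle the dividing cells are mainly granulosa cells, which surround the oocyte and multiply in response to follicle-stimulating hormone, whereas the oocyte itself is arrested in meiosis. Before a cell copies its DNA, Cdc6 and Cdt1 load the minichromosome maintenance (MCM) helicase onto replication origins, and Cdc45 and Gins2 turn it on. Pcna clamps the DNA polymerases to the template, and ribonucleotide reductase (Rrm1 and Rrm2), thymidine kinase (Tk1) and thymidylate synthase supply nucleotides. E2F factors switch on the genes of S phase, while Foxm1 and related complexes switch on those of mitosis, among them cyclin B, Plk1, the Aurora kinases, the spindle motors and the checkpoint kinases Bub1 and Bub1b.

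The promoters of 28 of the 38 genes were listed in RefSeq for build GRCm38.p6, as the 250 bases before and 50 after a transcription start. They were searched on both strands for 3 motifs known from cell cycle genes. A gene counted once if the promoter of any of its listed starts matched. The CCAAT box, bound by NF-Y, was spelled CCAAT and was present in 22 of the 28 (78.6%), against 41.1% of all 27025 genes with a listed promoter. The cell cycle genes homology region, the element of mitotic promoters, was searched by its core TTTGAA and was present in 13 (46.4%, all genes 20.2%). The E2F site was searched as TTTCGCGC, TTTGGCGC, TTCCCGCC or TTGGCGGG and was present in 7 (25%, all genes 4.29%). All 13 genes with TTTGAA also had a CCAAT box, a combination held by 8.97% of all genes, and 5 of the 28 had none of the 3 (17.9%, all genes 45.8%). These are matches of letters and do not show that a factor is bound.

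The promoters of 6 genes are shown because they form 3 pairs of partners, Mcm2 with Mcm7, Rrm1 with Rrm2 and Bub1 with Bub1b, whose probes differed in opposite directions between the ages. The pairs were picked after their values were seen. Each run is the 150 bases before the start on the gene's strand, with motif matches in capitals. The runs lie at chr6:88898781-88898930 (Mcm2, minus strand), chr5:138171884-138172033 (Mcm7, minus strand, the more upstream of its listed starts), chr7:102441545-102441694 (Rrm1, plus strand), chr12:24708104-24708253 (Rrm2, plus strand), chr2:127831860-127832009 (Bub1, minus strand) and chr2:118598061-118598210 (Bub1b, plus strand).
Mcm2: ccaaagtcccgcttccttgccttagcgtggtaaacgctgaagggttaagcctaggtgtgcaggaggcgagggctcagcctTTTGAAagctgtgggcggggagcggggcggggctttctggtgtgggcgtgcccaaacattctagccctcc
Mcm7: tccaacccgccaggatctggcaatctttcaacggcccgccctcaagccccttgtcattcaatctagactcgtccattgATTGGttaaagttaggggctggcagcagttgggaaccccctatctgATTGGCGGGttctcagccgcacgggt
Rrm1: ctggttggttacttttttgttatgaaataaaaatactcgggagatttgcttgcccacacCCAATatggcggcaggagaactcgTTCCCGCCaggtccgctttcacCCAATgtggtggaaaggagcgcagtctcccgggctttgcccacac
Rrm2: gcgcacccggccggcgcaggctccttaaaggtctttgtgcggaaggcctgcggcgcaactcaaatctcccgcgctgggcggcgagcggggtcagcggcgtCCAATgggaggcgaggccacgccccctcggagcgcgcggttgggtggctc
Bub1: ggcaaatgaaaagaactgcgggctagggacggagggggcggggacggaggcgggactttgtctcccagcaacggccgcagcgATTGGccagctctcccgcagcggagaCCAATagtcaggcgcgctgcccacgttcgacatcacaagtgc
Bub1b: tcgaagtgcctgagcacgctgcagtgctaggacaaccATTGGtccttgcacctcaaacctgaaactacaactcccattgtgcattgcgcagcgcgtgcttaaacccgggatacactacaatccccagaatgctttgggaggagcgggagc
A CCAAT box, written ATTGG where it lies on the other strand, falls inside the run of each gene but Mcm2, whose match lies at position -175 and so before the run. In Mcm7 the second ATTGG overlaps the E2F letters TTGGCGGG, and in Bub1b the TTTGAA lies at position 41 after the start, outside the run. E2F letters were held by Mcm7 and Rrm1 among the 6, Mcm7 lower and Rrm1 higher on the 180-day arrays. In Mcm7 they lay in the promoter shown and not in that of its other listed start.

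The agouti probe followed the labels on every array, at 0.169 to 0.368 units in the 6 black mice and 95.7 to 111 units in the 6 LY mice. The tissue label held too, since the egg coat gene Zp3 averaged between 18.7 and 31.4 units in the 4 groups and Fshr, the granulosa receptor for follicle-stimulating hormone, between 4.72 and 9.72 units. Each array had 166 to 503 missing and 67 to 144 negative values among 36227 probes, and 80.8% to 83.3% of its values reached the limit of sensitivity. On principal components of all probes, 90-day black 1 stood apart on the second (68.6, against 8.27 and -5.00 for the other 90-day black mice) and 90-day LY 1 on the third (-58.7, against 8.25 and 12.9). All 12 arrays were kept, and counts and medians that such an array moved are given without it as well. Among the cell cycle genes, 33 of 38 were at or above the limit on every measured array, and the 5 with some array below it were Gins2, Rrm1, Ccne2, Kif23 and Cenpe.

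Mki67, Top2a and Cdk1, classic markers of dividing cells, read at least 9.31 units on every array. Mki67, which codes for the proliferation antigen Ki-67, lay at 33.7, 30.3 and 31.6 units in the 180-day black mice, at 31.7, 30.2 and 34 units in the 180-day LY mice, at 36.9, 42.3 and 39.7 units in the 90-day black mice and at 46.8, 43.5 and 31.3 units in the 90-day LY mice. The genotypes overlapped at both ages, and the LY minus black difference was 0.00 ± 0.14 log2 (SE) at 180 days and 0.01 ± 0.14 at 90 days. Its 95% intervals were 0.810 to 1.24-fold and 0.815 to 1.25-fold. Top2a, the topoisomerase that untangles replicated chromosomes, measured 15.4, 11.5 and 13.9 units in the 180-day black mice, 14.4, 12.2 and 15.6 units in the 180-day LY mice, 9.31, 12.2 and 14.6 units in the 90-day black mice and 14.1, 16.9 and 11.7 units in the 90-day LY mice. Cdk1, the kinase that drives entry into mitosis, measured 31.6, 31.6 and 29.9 units and 35.3, 29.7 and 36.2 units in the black and LY mice of 180 days, and 25.9, 40.2 and 28.2 units and 41.0, 37.9 and 31.5 units in those of 90 days. Both genes overlapped between the genotypes at each age. For Top2a the differences were 0.05 ± 0.19 log2 at 180 days and 0.25 ± 0.19 at 90 days, and for Cdk1 they were 0.12 ± 0.16 and 0.25 ± 0.16, with adjusted p-values in limma from 0.558 to 0.940.

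**Figure D1:**
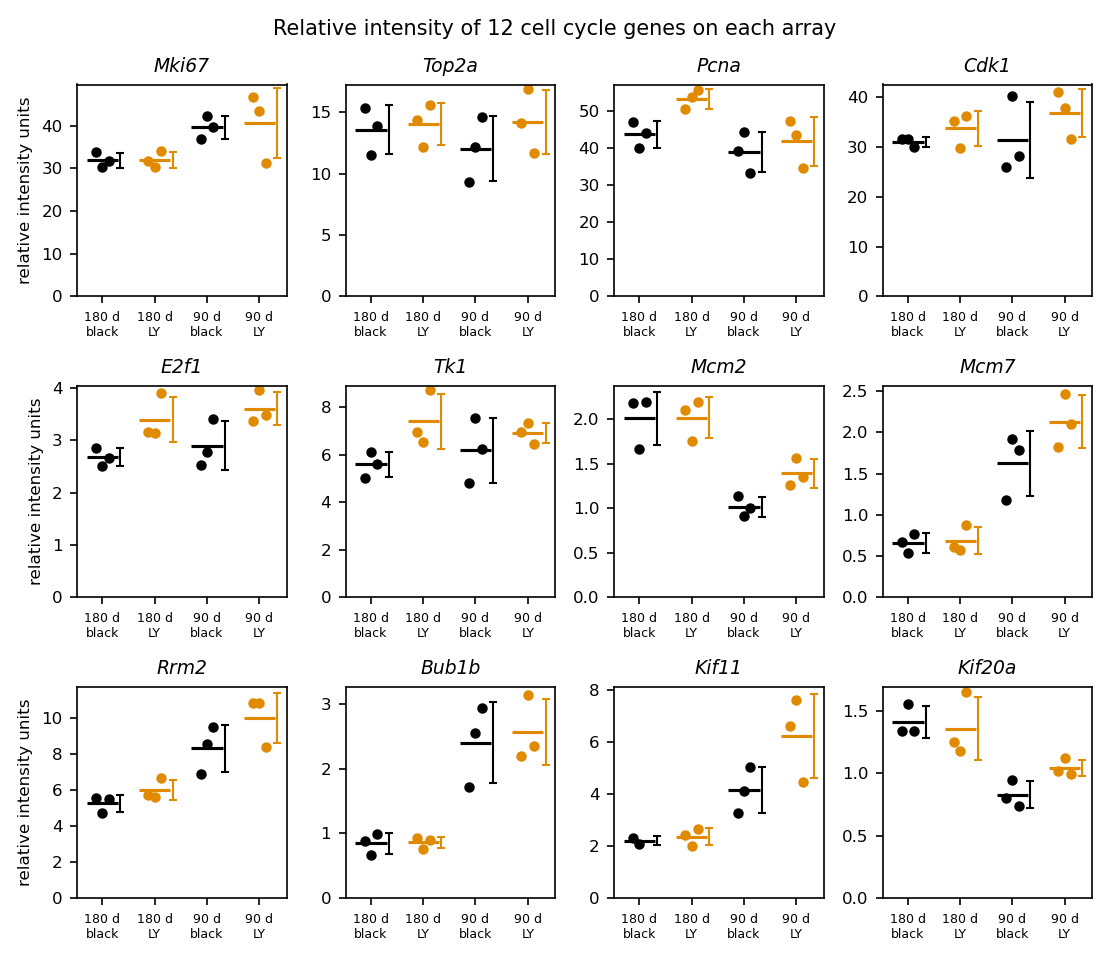
Relative intensity units (y axis, from 0 in each panel) of 12 cell cycle genes in the 4 groups (x axis). Points are mice, horizontal bars are group means and whiskers are SD (n = 3, or 2 for Kif11 in 180-day black mice). In Mki67 the LY and black mice of each age overlap, whereas Bub1b and Mcm7 lie lower, and Mcm2 higher, on every 180-day array than on every 90-day array.

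At 180 days, the age at which LY mice are obese, no cell cycle gene passed the test between LY and black ovaries. None of the 37 genes reached the threshold of an adjusted p of 0.05 in limma, against 0.0446% of all probes, and 2 had an unadjusted p under 0.05, against 12% of all probes. The methods' t-test gave 4 genes (10.8%) at an unadjusted p under 0.05, against 13.4% of all probes, and 0 after the Benjamini-Hochberg adjustment, against 0% of all probes. Of the 37 estimates 29 were higher in the LY mice, where 55.9% of all probes were, and the median was 0.08 log2, against 0.03 over all probes. That count rested on 1 array: without 180-day black 2 it fell to 17 of 37 and the median to -0.01. The estimates ran from -0.19 log2 (Aurka) to 0.40 (Tk1), and for 25 of the 37 the 95% interval lay inside 0.667 to 1.5-fold. In a whole ovary, fewer cells of a type and less RNA per cell cannot be told apart, so each value is an average over dividing and resting cells.

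The 4 genes with the smallest p at 180 days all belong to S phase and its onset. E2f1, the transcription factor of S-phase genes, measured 2.85, 2.51 and 2.66 units in the black mice and 3.16, 3.13 and 3.90 units in the LY mice. Tk1, which salvages thymidine, measured 5.03, 6.11 and 5.62 units in the black mice and 6.94, 6.54 and 8.71 units in the LY mice. In both genes each LY mouse lay above each black mouse, but neither passed the adjustment, with E2f1 at 1.27-fold (0.34 ± 0.13 log2, adjusted p = 0.358) and Tk1 at 1.32-fold (0.40 ± 0.17, adjusted p = 0.381). The second Tk1 probe gave a like value of 0.41 ± 0.15 log2. Pcna measured 47.0, 39.9 and 43.9 units in the black mice and 50.3, 53.7 and 55.6 units in the LY mice, and Cdt1 10.4, 9.27 and 11.3 units and 12.6, 12.2 and 12.5 units. The groups again did not overlap, at 1.22-fold for Pcna (0.29 ± 0.14 log2, adjusted p = 0.443) and 1.21-fold for Cdt1 (0.27 ± 0.14, adjusted p = 0.466). After quantile normalization the Pcna difference was 0.11 log2. In all, 8 genes lay higher in LY mice with no overlap, where 14.3% of all probes did, and 1 lay lower (Cenpa, the centromeric histone), where 8.37% of all probes did.

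At 90 days, before the LY mice become obese, none of the 37 genes passed either, again against 0.0446% of all probes, and 5 had an unadjusted p under 0.05, against 13.3% of all probes. The methods' t-test gave 2 genes (5.41%) at an unadjusted p under 0.05, against 8.93% of all probes, and 0 after adjustment, against 0.00319%. The estimates leaned to one side: 35 of 37 were higher in LY mice, where 49.1% of all probes were, and the median was 0.18 log2, against -0.00 over all probes. Without 90-day black 1, an array that stood apart, 26 of 37 were higher and the median was 0.05. Leaving aside Cenpe, whose black mice were all below the limit, estimates ran from -0.02 (Kif23) to 0.57 log2 (Kif11). The 95% interval lay inside 0.667 to 1.5-fold for 17 of the 37, and for the other 20 it reached beyond.

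Mcm2, a subunit of the MCM helicase, had the smallest p at 90 days. It measured 1.14, 0.917 and 0.999 units in the 90-day black mice and 1.26, 1.57 and 1.35 units in the 90-day LY mice. The groups did not overlap, at 1.37-fold (0.45 ± 0.14 log2, adjusted p = 0.229). In the 180-day mice the same probe read 2.18, 1.67 and 2.19 units in black and 2.11, 1.76 and 2.19 units in LY mice, a difference of 0.01 ± 0.14. Cenpe, a motor that brings chromosomes to the spindle equator, measured 0.0846, 0.0798 and 0.123 units in the 90-day black mice and 0.198, 0.205 and 0.106 units in the 90-day LY mice. All of these but 1 lay below the limit of sensitivity, and no fold is given (adjusted p = 0.249). At 180 days Cenpe measured 0.190, 0.247 and 0.249 units in black and 0.310, 0.223 and 0.219 units in LY mice, close to the limit.

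Kif11, the motor that pushes spindle poles apart, measured 3.28, 4.13 and 5.04 units in the 90-day black mice and 6.62, 7.59 and 4.45 units in the 90-day LY mice. One LY mouse fell within the range of the black mice, and the difference was 1.49-fold (0.57 ± 0.22 log2, adjusted p = 0.308). It was 0.41 log2 without 90-day black 1, and the second Kif11 probe gave 0.30. E2f1 measured 2.52, 2.77 and 3.41 units in black and 3.36, 3.97 and 3.49 units in LY mice, an overlap of 1 pair of mice and a difference of 1.25-fold (0.32 ± 0.13, adjusted p = 0.334). E2f1 was the only gene with an unadjusted p under 0.05 at both ages, and its difference was 0.24 log2 at 180 days without LY 3 and 0.23 at 90 days without black 1. Tk1 at 90 days read 4.80, 7.53 and 6.22 units in black and 6.96, 7.31 and 6.45 units in LY mice, Pcna 39.0, 44.1 and 33.3 units and 47.3, 43.4 and 34.5 units, and Cdt1 7.48, 9.12 and 8.08 units and 11.1, 11.3 and 8.09 units. All 3 overlapped at this age. Genes that lay higher without overlap were 2 (Mcm2 and Kif20a), where 6.92% of all probes did, and 0 lay lower, where 9.66% of all probes did.

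By role, the estimates for the 9 genes of origin licensing and the helicase were all higher in LY mice at both ages, with medians of 0.12 log2 at 180 days and 0.19 at 90 days. Without 180-day black 2, which was lowest for all 9, 4 of the 9 were higher at 180 days and the median was -0.01, and without 90-day black 1, 7 of the 9 were higher at 90 days and the median was 0.03. For the 5 genes of the fork and nucleotide supply the medians were 0.19 and 0.18. The 8 cyclins, kinase and transcription factors had medians of 0.09 and 0.18. The mitotic groups stood near 0 at 180 days, at 0.02 for the 6 mitotic kinases and checkpoint genes and 0.03 for the 9 genes of the spindle, centromere and chromosomes, and at 0.23 and 0.15 at 90 days. The medians of these 4 groups were also nearer to 0 or below it without those arrays, between -0.12 and 0.11 at 180 days without black 2 and between 0.01 and 0.10 at 90 days without black 1. None of these groups held a gene that passed the threshold.

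Genes without values of their own above are given by their range over all 12 arrays, which holds both genotypes and both ages. In the helicase, Mcm3 ran from 10.7 to 15.1 units, Mcm4 from 10.7 to 17 units, Mcm5 from 4.30 to 7.58 units and Mcm6 from 4.21 to 6.75 units. The loader Cdc6 ran from 1.91 to 4.62 units, Cdc45 from 2.21 to 5.34 units and Pole from 2.54 to 6.31 units. Cdc6, Mcm4, Mcm6 and Pole were lowest on 90-day black 1. Ccne1 ran from 0.837 to 1.78 units, Ccne2 from 0.178 to 1.20 units, Ccna2 from 9.81 to 18.4 units and Ccnb2, a cyclin of mitosis, from 20.3 to 32 units. Cdc25c, a phosphatase that activates Cdk1, ran from 0.652 to 1.35 units, lowest on 90-day black 1, and Foxm1 from 0.901 to 1.30 units. The 90-day LY 2 ovary held the highest value of Ccne1, Ccne2, Ccna2 and Cdc25c, and shared that of Foxm1 with 90-day black 3. Aurkb ran from 1.15 to 2.56 units, Plk1 from 0.852 to 2.10 units, Cdc20 from 3.64 to 7.77 units and Tpx2 from 5.44 to 11.3 units. Birc5, the survivin of the chromosomal passenger complex, ran from 20.3 to 31.6 units, Cenpa from 10.8 to 19 units and Kif23, a motor of the midzone between separating chromosomes, from 0.128 to 0.519 units. Of these, Aurkb, Cdc20 and Birc5 were lowest on 90-day black 1, and Gins2, which was not tested, lay between 0.0498 and 0.251 units.

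**Figure D2:**
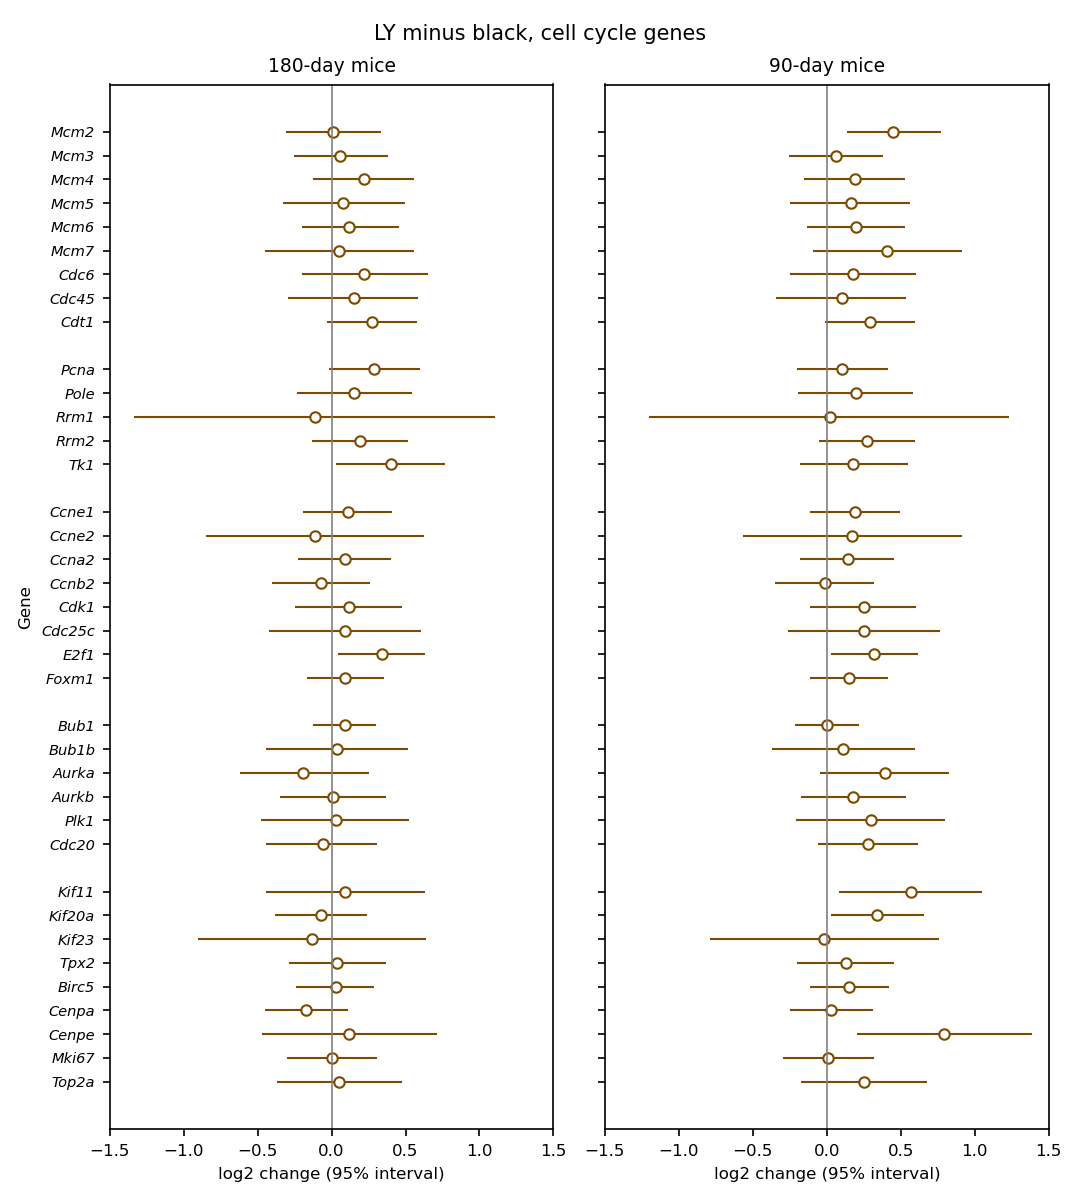
LY minus black difference on the log2 scale (x axis) for 37 cell cycle genes (y axis, grouped by role) in 180-day mice (left) and 90-day mice (right). Circles are limma estimates and lines are 95% intervals, unadjusted for the number of genes, and no gene passed the adjusted threshold. Estimates centre on 0.08 at 180 days and on 0.18 at 90 days.

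Whether the genotype difference changed with age was tested as the interaction, the difference at 180 days minus that at 90 days. None of the 37 genes passed, where 0% of all probes did, and 0 had an unadjusted p under 0.05, against 3799 of 31359 probes. The median was -0.08 log2 and 29 of 37 estimates were below 0, where 45.9% of all probes were. That lean rested on the 90-day arrays: without 90-day black 1, 17 of 37 were below 0 and the median turned to 0.03, and without 90-day LY 2, 20 were below 0 and the median was -0.00. With other arrays left out the median ran from -0.21 to -0.04, and after quantile normalization it was -0.16. Mcm2 had the smallest p, at -0.44 ± 0.20 log2 (adjusted p = 0.427). Kif20a, a motor of cell separation, measured 1.34, 1.56 and 1.34 units in the 180-day black mice, 1.25, 1.18 and 1.65 units in the 180-day LY mice, 0.803, 0.948 and 0.738 units in the 90-day black mice and 1.02, 1.12 and 0.998 units in the 90-day LY mice. The LY mice were all above the black mice at 90 days and the groups overlapped at 180 days, and the interaction was -0.41 ± 0.20 (adjusted p = 0.445). Aurka, the Aurora kinase of the spindle poles, measured 2.46, 2.19 and 3.01 units against 2.01, 1.96 and 2.79 units at 180 days and 1.84, 2.39 and 2.69 units against 2.90, 3.57 and 2.56 units at 90 days, black before LY. Its interaction was -0.57 ± 0.28 (adjusted p = 0.445), but a second, dimmer Aurka probe gave -0.13 ± 0.15. Cenpe gave -0.67 ± 0.38 (adjusted p = 0.517), and 0.09 when values below the limit were set to it.

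The cell cycle genes varied together from mouse to mouse. On 90-day black 1, the array that stood apart, 26 of the 37 genes had their lowest value of the 6 arrays of that age, and the genes lay on average 0.37 log2 below their own 90-day means (mean deviation -0.37). Of all genes tested and measured on those 6 arrays, 3431 of 16105 were lowest there. On 90-day LY 2, 23 genes had their highest value, against 2233 of 16105 over all genes tested, and the mean deviation of the cell cycle genes was 0.26. Within the LY group of that age the mean deviations were 0.13, 0.26 and -0.08, and within the black group -0.37, 0.04 and 0.02. At 180 days the spread was smaller: black 2 was lowest for 21 of the 35 genes measured on all 6 arrays (-0.15) and LY 3 highest for 18 (0.13). Over all genes tested, the same arrays were lowest for 4275 and highest for 4142 of 16222.

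**Figure D3:**
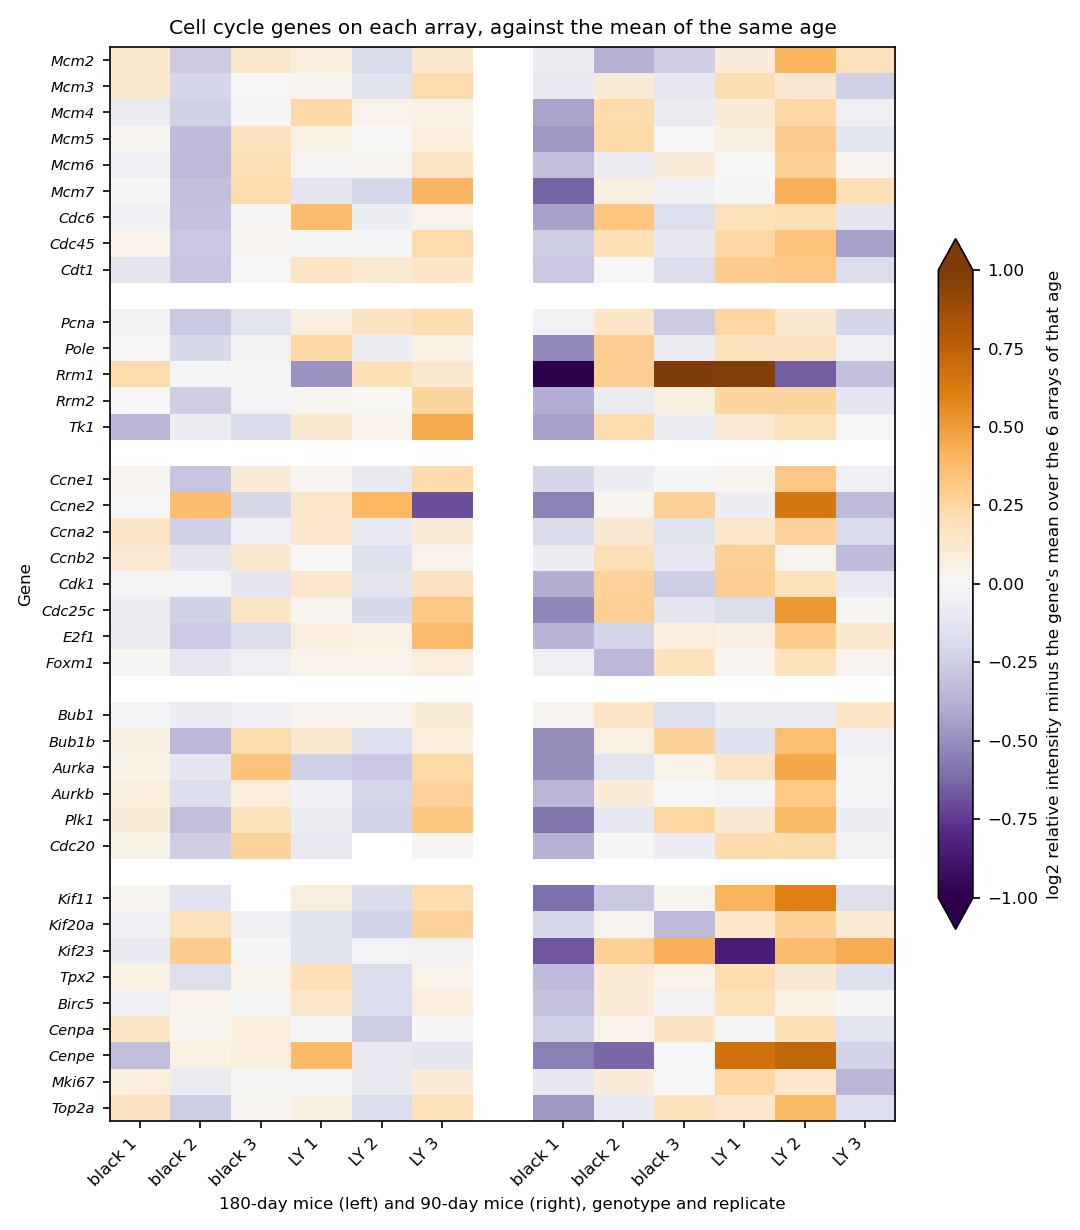
Deviation of each of 37 cell cycle genes (y axis, grouped by role) from its own mean over the 6 arrays of the same age, on the log2 scale (colour, cut at -1 and 1), for each mouse (x axis). White cells in Kif11 and Cdc20 are missing values. Most genes are below their mean on 90-day black 1 and above it on 90-day LY 2.

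Granulosa cell markers moved with them at 90 days and apart from them at 180 days, and markers of other cell types followed other patterns. Of 12 listed granulosa cell markers 11 were tested, with a summed level of 325 to 413 units in the 90-day black mice, 316 to 445 units in the 90-day LY mice, 309 to 390 units in the 180-day black mice and 227 to 294 units in the 180-day LY mice. The 11 markers had mean deviations of -0.32, -0.12 and 0.07 on the 90-day black arrays and 0.17, 0.28 and -0.08 on the 90-day LY arrays, the same lowest and highest arrays as the cell cycle genes. The median LY minus black difference of these markers was 0.15 log2 at 90 days, with 9 of 11 estimates higher (0.10 and 8 of 11 without 90-day black 1), and Inhbb, the beta B subunit of activin and inhibin, was highest at 1.28 ± 0.35 (adjusted p = 0.183). At 180 days their median was -0.41 with 10 of 11 estimates lower, and their mean deviations ran from 0.38 on black 1 to -0.34 on LY 2, while the cell cycle genes lay at 0.01 and -0.07 on those arrays. The 16 oocyte markers had medians of -0.34 at 180 days and 0.10 at 90 days, and their summed level was 81.4 to 107 units in the 180-day black mice and 56.6 to 81.1 units in the 180-day LY mice. At 90 days the oocyte markers were highest on black 2 (0.18) and lowest on black 1 (-0.18). The 6 tested markers of surface epithelium and oviduct were lower on every LY array than on any black array at 90 days, at 0.37, 0.49 and 0.24 on the black and -0.61, -0.40 and -0.09 on the LY arrays. Their highest array (black 2) and lowest array (LY 1) were not the extreme arrays of the cell cycle genes. Their summed level was 20.9 to 26.2 units in the 90-day black and 14.4 to 16.4 units in the 90-day LY mice. All 6 estimates were lower in LY mice (median -0.72), and 5 had an unadjusted p under 0.05 (lowest adjusted p = 0.0836), against 13.3% of all probes. At 180 days their median was -0.30. The 2 tested luteal markers, Ptgfr and Akr1c18, had medians of -1.11 at 90 days, where their sum was 12.6 to 18.2 units in black and 5.63 to 7.70 units in LY mice, and -1.23 at 180 days, where it was 3.76 to 32.8 units and 2.16 to 6.67 units. Medians at 180 and 90 days were 0.30 and 0.09 for theca and stroma, -0.02 and 0.09 for leukocytes, 0.05 and -0.26 for endothelium and 0.05 and -0.66 for adipocytes. The adipocyte markers spread widely within groups at 90 days. Their mean deviations were 1.05, -1.35 and 0.91 on the black arrays and 1.34, -2.51 and 0.56 on the LY arrays. No marker of these lists passed the threshold between the genotypes, and the part of cell composition in the cell cycle values was not tested.

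**Figure D4:**
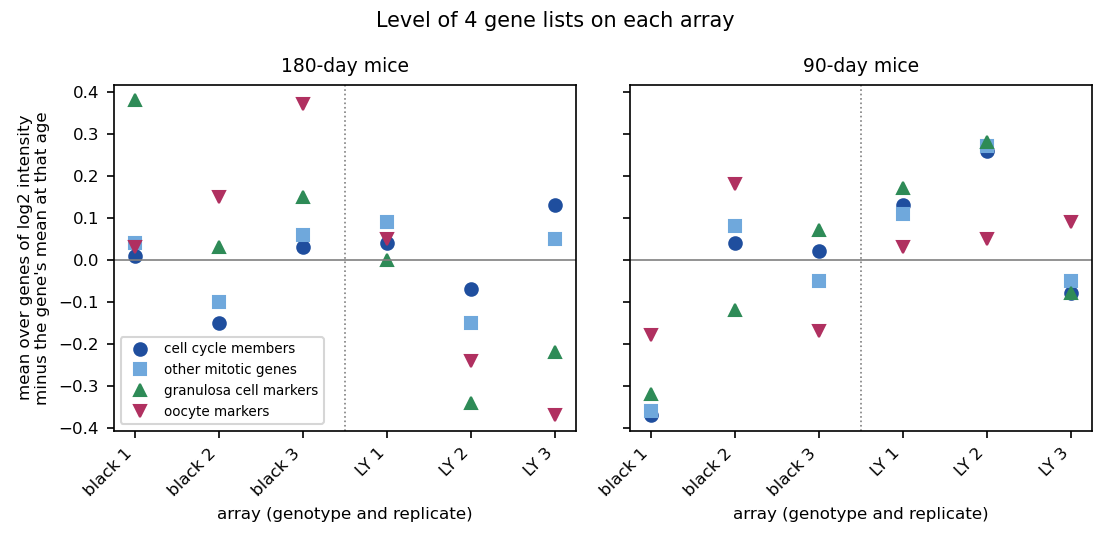
Mean deviation (y axis, log2, against each gene's mean over the 6 arrays of the same age) of 37 cell cycle genes, 36 other mitotic genes, 11 granulosa cell markers and 16 oocyte markers on each array (x axis), 180-day mice left and 90-day mice right. At 90 days the cell cycle genes, other mitotic genes and granulosa markers share their lowest array (black 1) and highest array (LY 2). At 180 days the granulosa markers are lower on every LY array than on any black array, though LY 1 (0.00) is close to black 2 (0.03).

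The rest of the cell cycle machinery was taken from 5 further lists, in which 95 genes were tested, and no gene passed the threshold between LY and black mice at either age. Of 36 other mitotic genes, 33 estimates were higher in LY mice at 90 days, with a median of 0.27 log2. Of their unadjusted p-values 9 were under 0.05, against 13.3% of all probes. Without 90-day black 1, 27 were higher with a median of 0.10. At 180 days 21 were higher and the median was 0.03, and without 180-day black 2 11 were higher and it was -0.05. The smallest p at 90 days were those of Incenp, a partner of Aurora B (0.38 ± 0.11, adjusted p = 0.190), and Spc24, a part of the kinetochore (0.57 ± 0.16, adjusted p = 0.197). The 90-day mean deviation of this list was lowest on black 1, at -0.36. Of 33 other replication genes 26 estimates were higher at each age, with a median of 0.08 at both. Without 180-day black 2, 21 were higher at 180 days (0.03), and without 90-day black 1, 17 were higher at 90 days (0.02). Pole2, a subunit of DNA polymerase epsilon, had the smallest p at 180 days and measured 2.39 ± 0.113 units in black and 3.38 ± 0.0907 units in LY mice (SD, n = 3), a difference of 0.50 ± 0.11 log2 that missed the threshold (adjusted p = 0.144).

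Inhibitors of cyclin-dependent kinases, which hold cells out of the cycle, were lower in LY mice by 4 of 6 estimates at each age. Of all probes, 55.9% were higher at 180 days and 49.1% at 90 days. At 90 days the inhibitors had a median of -0.17 log2, with 3 unadjusted p-values under 0.05, against 13.3% of all probes. Cdkn1a, which codes for the inhibitor p21, measured 2.79 ± 0.319 units in black and 1.73 ± 0.117 units in LY mice (SD, n = 3) without overlap, a difference of -0.69 ± 0.15 log2 (adjusted p = 0.109). Cdkn2b measured 5.80 ± 0.643 and 3.04 ± 0.535 units (-0.94 ± 0.28, adjusted p = 0.208). At 180 days the median was -0.01, and the smallest p was that of Cdkn1c, at -0.40 ± 0.14 (adjusted p = 0.307). The 7 cyclins and kinases of G1 phase had medians of 0.05 at 180 days and 0.09 at 90 days, and the 13 pocket proteins and other E2F factors 0.02 and 0.05. Of the latter, the repressors E2f8 (0.42, adjusted p = 0.249) and E2f7 (0.43, adjusted p = 0.294) had the smallest p at 90 days.

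Between 180-day and 90-day arrays, in contrast to the genotypes, many cell cycle genes differed, in both directions. In the black mice 9 of 37 genes (24.3%) were higher at 180 days and 9 (24.3%) lower, against 25.9% and 20.9% of all probes. In LY mice 5 (13.5%) were higher and 11 (29.7%) lower, against 27.9% and 19.3%. The shares in black mice were near those of all probes. Medians were -0.08 log2 in black and -0.07 in LY mice, and were the same to 2 decimals with genes below the limit in a whole group set at their bound. With 1 array left out the black median ran from -0.12 to 0.07, highest without 90-day black 2, and the LY median from -0.17 to -0.02, and after quantile normalization the LY median was -0.19. The methods' t-test called 10 of 37 (27%) in each genotype after adjustment, against 32.6% of all probes in black and 38.8% in LY mice. Over both genotypes 20 genes passed at least once and 14 passed in each, all 14 in the same direction, 5 higher and 9 lower. Of all probes, 46.8% passed in black and 47.2% in LY mice. How many of them passed in both, or in the same direction, was not counted. The counts of 20 and 14 therefore have no share of all probes beside them and show nothing particular to these genes. The black and LY comparisons have no array in common but span the same 2 array sets.

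The MCM helicase held genes of both directions. The partners set side by side here and below were picked after their values were seen. Of all probes, 25.9% were called higher and 20.9% lower in black mice, and 27.9% and 19.3% in LY mice. Of the 6 subunits of this ring, Mcm2 was higher on the 180-day arrays (1.96-fold in black mice, 0.97 ± 0.14 log2, adjusted p = 0.000308, and 1.45-fold in LY mice, adjusted p = 0.0112) and Mcm7 was lower. Mcm7 measured 0.668, 0.535 and 0.769 units in the 180-day black mice, 0.609, 0.573 and 0.875 units in the 180-day LY mice, 1.18, 1.92 and 1.78 units in the 90-day black mice and 1.82, 2.47 and 2.10 units in the 90-day LY mice. Every 180-day array lay below every 90-day array, at 0.409-fold in black (-1.29 ± 0.23, adjusted p = 0.000961) and 0.319-fold in LY mice (-1.65 ± 0.23, adjusted p = 0.000188). For Mcm3, Mcm4, Mcm5 and Mcm6 the estimates lay between -0.24 and 0.22 in both genotypes and none passed. Their probes read at least 4.21 units on every array, whereas the dimmer probes of Mcm2 and Mcm7 read at most 2.47 units. Elsewhere in licensing, Cdc45 was lower in both genotypes (-0.68 and -0.63).

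The subunits of ribonucleotide reductase were also called in opposite directions. Rrm2, its small subunit, measured 5.57, 4.71 and 5.49 units in the 180-day black mice, 5.71, 5.63 and 6.66 units in the 180-day LY mice, 6.90, 8.57 and 9.47 units in the 90-day black mice and 10.8, 10.8 and 8.37 units in the 90-day LY mice. It was lower at 180 days without overlap, at 0.602-fold in LY mice (-0.73 ± 0.15, adjusted p = 0.00211) and 0.636-fold in black mice (adjusted p = 0.00417). Rrm1, the large subunit, was above the limit on all 6 arrays of 180 days (0.244 to 0.398 units) and below it on all 6 of 90 days (0.0273 to 0.140 units). It was therefore at least 1.77-fold higher in black and at least 1.64-fold higher in LY mice at 180 days, with the higher of 0.2 units and the probe's own value standing in on each 90-day array (adjusted p = 0.00502 and 0.00682). Pole, the catalytic subunit of DNA polymerase epsilon, was higher in both genotypes (0.58 and 0.54).

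Among the checkpoint kinases, Bub1 and Bub1b were called in opposite directions. Bub1b, which codes for BubR1, measured 0.887, 0.668 and 0.984 units in the 180-day black mice, 0.922, 0.767 and 0.894 units in the 180-day LY mice, 1.72, 2.54 and 2.94 units in the 90-day black mice and 2.20, 3.14 and 2.35 units in the 90-day LY mice. The ages did not overlap, and Bub1b was 0.357-fold in black (-1.49 ± 0.22, adjusted p = 0.000286) and 0.339-fold in LY mice (-1.56 ± 0.22, adjusted p = 0.000206). Bub1 went the other way, at 1.27-fold in black and 1.35-fold in LY mice (adjusted p = 0.0143 and 0.00413), with 1.15 to 1.28 units on the 180-day arrays and 0.823 to 1.02 units on those of 90 days. A dimmer Bub1 probe, below the limit on 7 arrays, gave 0.45 and -0.13 and did not pass. Aurkb, the Aurora kinase of the centromere, was higher in both genotypes (0.63 and 0.46), and Cdc20, which activates the anaphase-promoting complex, passed in black mice (0.62). Plk1, the polo kinase, passed as lower in LY mice (-0.74) and gave -0.47 in black mice (adjusted p = 0.117). Aurka did not pass by its brighter probe (-0.42 in LY mice, adjusted p = 0.102) but did in LY mice by the dimmer one (-0.41, adjusted p = 0.0101).

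The spindle motors held calls of both directions. Kif11 read 2.32 and 2.08 units in the 180-day black mice, where black 3 had no value, and 2.41, 2.01 and 2.65 units in the 180-day LY mice. All lay below the 90-day values given earlier, and the difference was 0.386-fold in LY (-1.37 ± 0.22, adjusted p = 0.000671) and 0.537-fold in black mice (adjusted p = 0.0133). The second Kif11 probe was lower in both as well (-0.96 and -0.70). Kif20a went the other way, at 1.71-fold in black mice (0.77 ± 0.14, adjusted p = 0.00124), and gave 0.36 in LY mice (adjusted p = 0.0588). Tpx2, which builds spindle microtubules, was lower in both genotypes (-0.62 and -0.70). Kif23 (0.94, a call lost in 9 of 12 fits with 1 array left out) and Cenpe were higher in black mice alone by the threshold, and Cenpa (-0.46) lower in LY mice alone, though the interaction did not pass for any of them. Cenpe was below the limit in all 90-day black mice, and the bound was at least 1.13-fold.

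The listed E, A and B cyclins were lower or did not pass. Ccne1 (-0.45 and -0.53), Ccne2 (-1.28 and -1.56) and Ccna2 (-0.38 and -0.44), the cyclins that take cells into and through S phase, were lower at 180 days in black and LY mice respectively, though the Ccna2 call in black mice was lost in 8 of 12 fits with 1 array left out. Ccnb2, Cdk1, Cdc25c, E2f1 and Foxm1 did not pass in either genotype, with estimates from -0.34 (Cdc25c in LY mice) to 0.24 (Ccnb2 in black mice). Mki67 gave -0.31 and -0.32 (adjusted p = 0.0874 and 0.0793), Top2a 0.19 and -0.01, and Pcna 0.17 and 0.36 (adjusted p = 0.324 and 0.0513). None of these markers of division passed in either genotype.

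**Figure D5:**
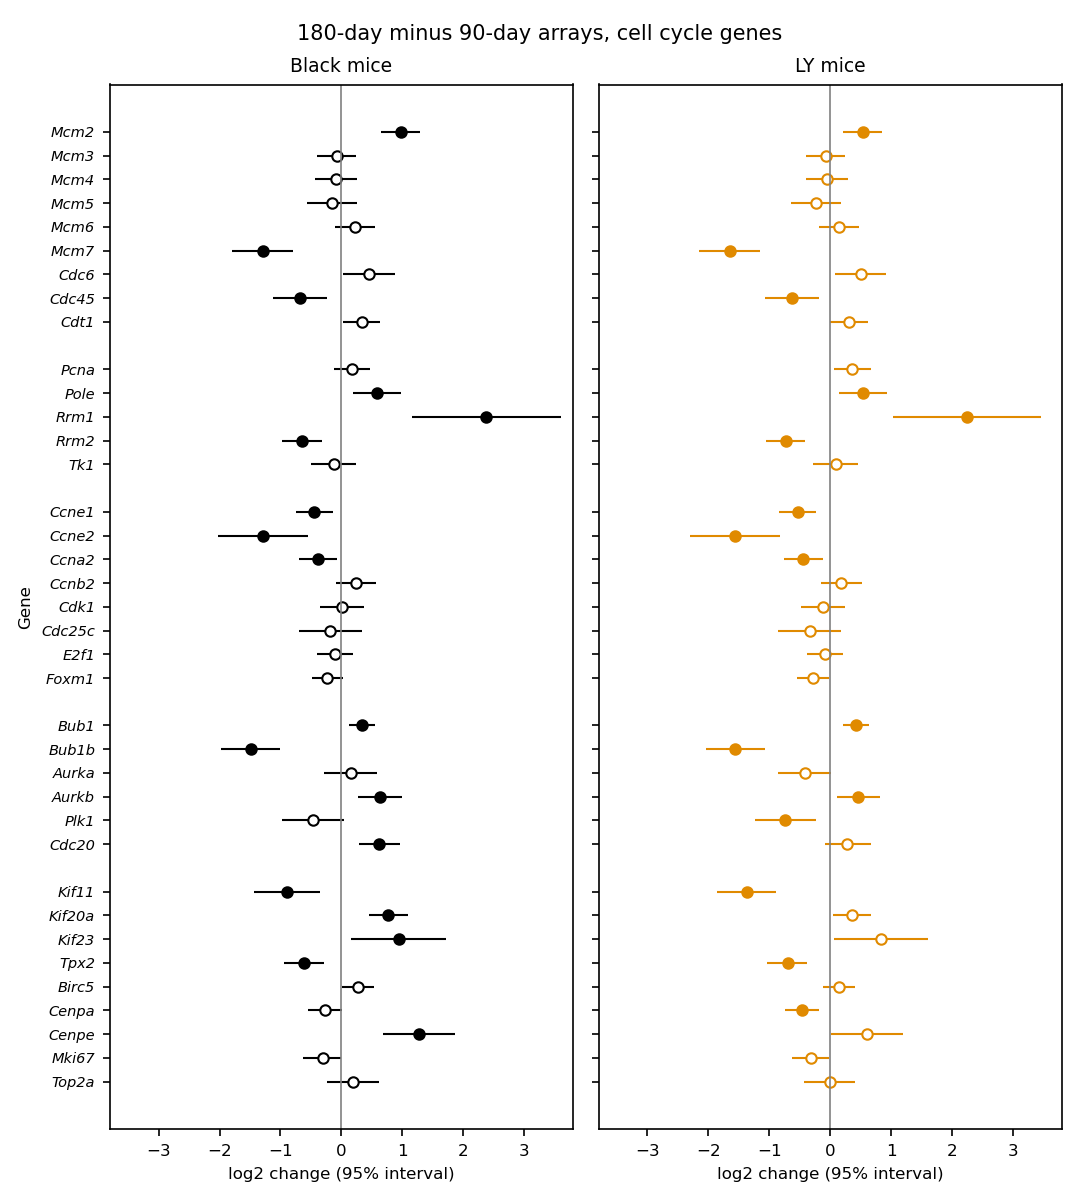
180-day minus 90-day difference on the log2 scale (x axis) for 37 cell cycle genes (y axis, grouped by role) in black mice (left) and LY mice (right), with 95% intervals unadjusted for the number of genes. Filled circles passed an adjusted p of 0.05, 18 in black and 16 in LY mice. Mcm2 and Mcm7, Rrm1 and Rrm2, and Bub1 and Bub1b lie on opposite sides of 0 in both genotypes.

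Of these calls, 12 of 18 in black and 11 of 16 in LY mice were kept when any one of the 12 arrays was left out. In black mice Ccna2, Kif23, Cdc45, Ccne1, Pole and Kif11 lost theirs for at least 1 array, Kif11 only without 180-day black 2 (adjusted p = 0.0751) and Cdc45 only without 180-day black 2 or 90-day black 2 (at most 0.0633). Ccne1 and Pole were called in 9 of the 12 such fits (at most 0.0829 and 0.0619). Ccna2 and Kif23 were called in only 4 and 3 of the 12 (at most 0.163 and 0.167) and under 6 and 7 of 11 other settings. In LY mice Cdc45, Pole, Ccna2 and Aurkb were called in 8 and Plk1 in 9 of the 12, with adjusted p-values of at most 0.0947, 0.0951, 0.109, 0.131 and 0.0808. Mcm2, Mcm7, Rrm1, Rrm2, Bub1, Bub1b, Ccne2 and Tpx2 kept their calls in both genotypes. Of the 95 genes of the other cell cycle lists, 24 were higher and 23 lower in black mice and 25 and 25 in LY mice, against the 25.9% and 20.9% and the 27.9% and 19.3% of all probes given above. Among them, Cdk4 was higher (0.93 in black and 1.38 in LY mice, adjusted p = 2.65e-05 and 2.21e-06) and Cdk2 lower (-1.33 and -1.53, adjusted p = 2.48e-05 and 9.51e-06). Of the cyclins of G1 phase, Ccnd2 was higher (0.52 in black and 0.40 in LY mice, adjusted p = 0.00415 and 0.0164). Ccnd3 was lower (-0.95 and -0.79, adjusted p = 0.00879 and 0.0215). Of the 6 inhibitors tested, 3 were higher in both genotypes, Cdkn1c (1.92 and 1.83), Cdkn1a (0.67 and 1.11) and Cdkn2d (0.41 and 0.58). Cdkn2c was lower in both (-0.91 and -0.93).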

How the data were processed

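Total RNA of 1 whole ovary from each of 12 mice was labelled and hybridized to one-colour CodeLink mouse arrays. By the methods, the authors read the slides on a GenePix scanner, removed background in CodeLink software and set the median of every slide in GeneSpring to a common value, and what they deposited are relative intensity units. Deposited medians were 1.00 on the 180-day and 1.04 on the 90-day arrays. A per-gene normalization that the methods mention is absent from the deposited values, in which every probe keeps its own level.

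From there, intensities were divided by the median of their array, raised to 0.01 units where lower, and put on the log2 scale. Of 36227 probes, 31359 had a value in every group and a group mean that reached 0.2 units in 1 group or more, and these were tested with limma 3.58.1 in R 4.3.3, with 4 group means fitted to all 12 arrays (8 residual degrees of freedom). This gave the LY minus black difference at each age, their interaction, and the 180 minus 90 day difference in each genotype. Adjusted p-values come from limma and were adjusted by the Benjamini-Hochberg method over the 31359 probes, with a threshold of 0.05. Folds are 2 to the power of the log2 difference, and errors on log2 differences are standard errors. Exact two-sided permutation tests of single genes are not given, because with 3 mice against 3 their smallest p is 0.1. The number of arrays limits the precision.

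Probes were named by the platform annotation, 21615 of them for 1 gene. The replicates are separate mice. The genes, the marker and pathway lists and the tests were chosen with earlier results of these data known. Values on every array are given for Mki67, Top2a, Pcna, Mcm2 and Cdk1 and for the 4 genes with the smallest p in each comparison. Other genes named for a call between the ages, the Rrm1 and Bub1 partners and the promoters shown were chosen after their values were seen. Alternative floors, filters, scalings, weights and tests were tried. The procedure was tested on simulated data.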

Additional observations from a re-analysis of the deposited data

How the results depend on the processing

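No cell cycle gene passed the adjusted threshold between LY and black mice, or in the interaction, in limma under any alternative or with any array left out. The methods' t-test at an unadjusted p under 0.05 gave 4 genes at 180 days and 2 at 90 days, and after adjustment 0 at each. Between the ages it gave 10 genes in each genotype after adjustment, in place of 18 and 16 (32.6% and 38.8% of all probes, in place of 46.8% and 47.2%). The count of higher LY estimates at 180 days (29) was 19 with array quality weights and 17 to 30 with 1 array left out, lowest without 180-day black 2, and that at 90 days (35) was 26 to 37, lowest without 90-day black 1. The count of interaction estimates above 0 (8) was 3 after quantile normalization and 4 to 20 with 1 array left out, highest without 90-day black 1, where its median was 0.03. The medians at 180 and 90 days ran from -0.01 to 0.15 and from 0.05 to 0.27 with 1 array left out. The genes' median deviation on single arrays from their group means had an SD of 0.17, pooled over both ages. That SD is not the error of these differences. Cenpe, near the limit of sensitivity, changed sign in the interaction with a floor of 0.2 units (0.09, adjusted p = 0.897) and lost its call between the ages in black mice. With the replicate block, which pairs same-numbered arrays that share only a number, 0, 0 and 0 genes were called in the genotype comparisons and the interaction and 17 and 17 between the ages. Same-numbered arrays did not deviate together (correlations -0.10 to 0.15, 1 of 18 pairs over 0.1).

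Over all probes the 14 called at each age ran from 1 to 21 at 180 days and from 1 to 66 at 90 days with 1 array left out, and the 0 of the interaction rose to 35 without 90-day LY 3 and to 198 with an intensity trend. The cause was not tested. Of the age calls, 10 of 18 in black and 10 of 16 in LY mice were kept under every alternative in limma and with any array left out. Bub1 lost its call when its probes were averaged. With 3 arrays per group and dim probes close to 0.2 units, small differences are not resolved.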
